A study of Mus musculus with 34 samples.

Results

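The difference between the dexamethasone response of D647V-Tetra cells and that of wild-type (WT) cells was examined, gene by gene, in 10 of the 34 libraries of a study of the glucocorticoid receptor (GR). The 10 libraries were chosen by line and treatment, as those of the D647V-Tetra line and of the WT line that belonged to the same library set, called set 2. All of them came from 3617-derived mouse mammary adenocarcinoma cells in which the endogenous receptor had been knocked out and a GFP-tagged mouse GR was expressed in its place. The labels give a single line for each receptor form, so what the receptor form does and what else sets the 2 lines apart cannot be told apart. They do not say what Tetra stands for. D647V denotes an aspartate-to-valine change, and the series concerns the ligand-binding domain of the receptor. Cells of every group were grown with 5 µg/ml tetracycline and kept for at least 24 h in hormone-free culture with 10% charcoal-treated serum. They then received either 100 nM dexamethasone (Dex), a synthetic glucocorticoid, or ethanol vehicle (EtOH) for 2 h. The groups were WT with EtOH (n = 2), WT with Dex (n = 2), D647V-Tetra with EtOH (n = 3) and D647V-Tetra with Dex (n = 3). Used as points of reference were the D647V line of the same set (6 libraries) and the WT line of set 1 (6 libraries). The D647V line bears D647V without Tetra. The sets were told apart by the library numbers in the sample titles, and the labels do not assign libraries to batches. The labels do not state that replicates came from separate cultures, so p-values may measure only technical spread.

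The 10 libraries held 60277930 to 75690146 counted reads each and between 21231 and 22692 genes with a count. Counts within a group correlated at 0.9926 or higher across genes. Mitochondrially encoded genes took 1.313% to 1.874% of counts. Of 11 markers of luminal mammary epithelium, 10 stayed below 1 CPM (counts scaled to library size) in all 10 libraries, among them Krt8, Krt18, Epcam and Cdh1. Of 7 basal or myoepithelial markers, all but Krt14 and Trp63 did so, and the 7 summed to 4.103 to 9.375 CPM. Of 11 fibroblast or mesenchymal markers, Dcn, Lum and Thy1 stayed below 1 CPM as well, and the 11 summed to 7961 to 10030 CPM. The labelled mammary adenocarcinoma origin was thus not matched by the luminal keratins Krt8 and Krt18 or the cadherin Cdh1. Nr3c1, the gene of the receptor itself, stood at 336.8 and 341.2 CPM in WT with EtOH, and at 273.7, 258.5 and 255.8 CPM in D647V-Tetra with EtOH. The D647V-Tetra libraries were all lower, by 0.37 on the log2 scale (adjusted p past the threshold in edgeR's quasi-likelihood test), and the table does not separate the transgene from what remains of the endogenous gene. The part that this lower receptor transcript plays in the results was not tested.

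GR is a nuclear receptor that resides in the cytoplasm with chaperones until a glucocorticoid binds. It then enters the nucleus and binds DNA at palindromic glucocorticoid response elements, or acts near other factors such as AP-1 and NF-kB, and within hours raises some genes and lowers others. Well-known induced genes include Tsc22d3 (also called GILZ), Sgk1, Per1 and Fkbp5, while many cytokines and growth-related genes are repressed.

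The question was whether a gene answers Dex to another extent in D647V-Tetra than in WT. For each gene, the log2 Dex response of WT was subtracted from that of D647V-Tetra, and a gene was called at a Benjamini-Hochberg adjusted p below 0.05 in edgeR's quasi-likelihood test. Of 17535 genes tested, 774 were called (4.41%), of which 649 (3.7%) had a higher and 125 (0.713%) a lower response in D647V-Tetra. At least a 1.5-fold difference was reached by 344 of the higher and 33 of the lower genes. The lower group included known glucocorticoid-induced genes such as Ccn2, Sgk1 and Tsc22d3. It also held 63 genes, of its 125, that were not called in WT and called down in D647V-Tetra. The higher group consisted mostly of genes that were not called in WT (629 of 649) and had a large total exon length. Taken alone, the Dex response was called in 302 genes in WT (1.72%, with 1.35% up and 0.376% down) and in 3367 in D647V-Tetra (19.2%, with 11.3% up and 7.89% down). These 2 counts are not on equal terms, as WT had 2 libraries per treatment and D647V-Tetra 3. The D647V-Tetra count was 1344 to 4023 with 1 of its libraries left out. The WT of set 1, with 3 libraries per treatment, gave 549 (3.4%). Of the lower genes, 48 were called up by Dex in WT, 76 were not called there and 1 was called down. The counts depended on single libraries. Without the second WT EtOH library 75 genes were called (50 higher, 25 lower), and without the second WT Dex library 96 (69 higher, 27 lower). Without the first WT EtOH library the count was 1531 and without the second D647V-Tetra EtOH library 1643. Called under each of 19 other settings of the analysis, which include leaving out each library, were 21 of the lower and 43 of the higher genes, and the account below gives most room to these.

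**Figure D1:**
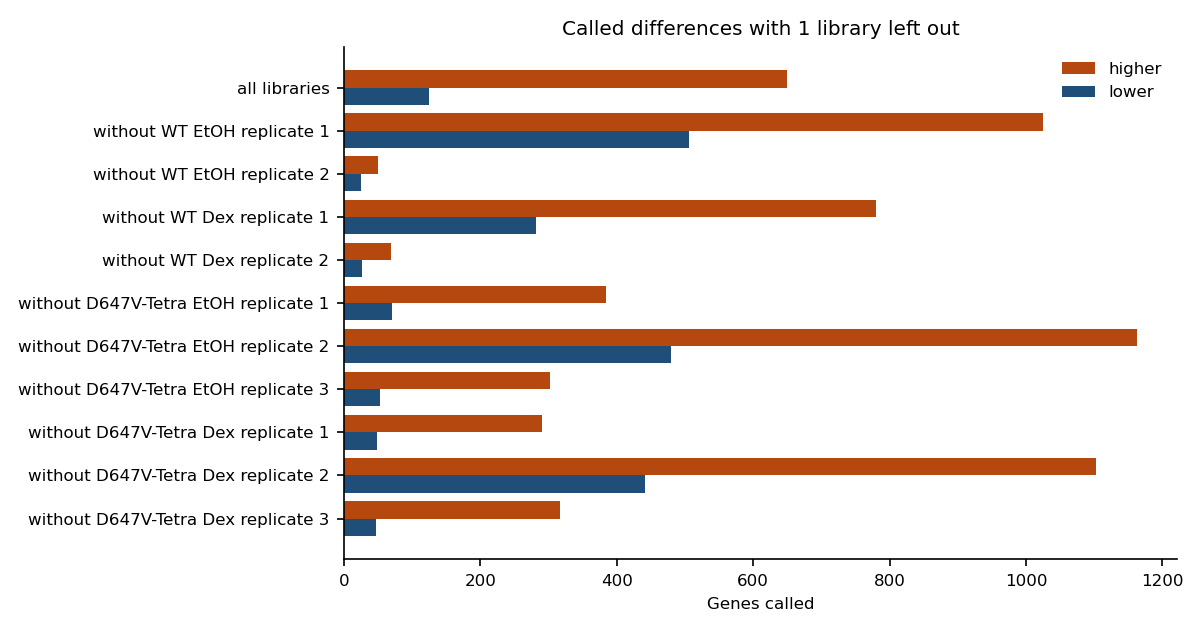
Bars give the number of genes called (horizontal axis) with a higher or a lower Dex response in D647V-Tetra than in WT, with all libraries and with each of the 10 libraries left out in turn. The count with all libraries was 649 higher and 125 lower, and it ranged from 50 to 1163 higher and from 25 to 506 lower.

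The genes with the lowest adjusted p were Ccn2, Sgk1 and Tsc22d3, each induced in both lines and less in D647V-Tetra than in WT. Ccn2 (mm10 chromosome 10, 24595442 to 24598683, plus strand) encodes connective tissue growth factor, a secreted matricellular protein. It stood at 8.273 and 7.843 CPM in WT with EtOH and at 264.5 and 242.2 CPM with Dex. In D647V-Tetra it stood at 8.603, 7.522 and 8.213 CPM with EtOH and at 38.78, 40.68 and 39.77 CPM with Dex. Levels without hormone overlapped between the lines, and with Dex no D647V-Tetra library came near a WT library. The WT response was 31.4-fold and the D647V-Tetra response 4.9-fold. The log2 difference was -2.68 ± 0.0955 (SE, adjusted p 3.1e-11), and it ranged from -2.75 to -2.62 when any 1 library was left out.

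Sgk1 encodes a serine/threonine kinase that regulates ion transport and cell survival (chromosome 10, 21882184 to 21999903, plus strand). In WT it went from 128.4 and 138.3 CPM with EtOH to 850.8 and 821.1 CPM with Dex. In D647V-Tetra it went from 107.3, 104.4 and 110.1 CPM to 191.5, 189.7 and 193.4 CPM. The 3 treated D647V-Tetra libraries were nearly level with each other and far below both treated WT libraries. Fold changes were 6.27 in WT and 1.79 in D647V-Tetra, a log2 difference of -1.81 ± 0.0681 (SE, adjusted p 3.72e-11). Without hormone the level was also lower, by -0.31.

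Tsc22d3 encodes the glucocorticoid-induced leucine zipper protein, an inhibitor of NF-kB and AP-1 (chromosome X, 140539528 to 140600659, minus strand). Its level was 26.5 and 23.88 CPM in WT with EtOH and 142.2 and 153.1 CPM with Dex, and 25.34, 24.28 and 25.95 CPM in D647V-Tetra with EtOH and 71.62, 72.08 and 71.6 CPM with Dex. Levels without hormone were the same in both lines (log2 difference 0.00), and with Dex every D647V-Tetra library lay below both WT libraries. The difference of response was -1.04 ± 0.0842 (SE, adjusted p 4.72e-06).

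The 250 bases before an annotated transcription start are printed for Sgk1 and Tsc22d3, because these 2 genes are among the 3 with the lowest adjusted p. Ccn2 had no entry among the promoter sequences at hand, so its window was not searched. Each window is written 5′ to 3′ on the gene's strand, with every AGAACA or TGTTCT (the half-site bound by a GR monomer and its reverse complement) in capitals. In the Sgk1 window (GRCm38.p6, chr10:21993640-21993889, plus strand) 3 half-sites were found, of which 2 form a palindrome of the form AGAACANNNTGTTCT. In the Tsc22d3 window (GRCm38.p6, chrX:140600523-140600772, minus strand) 1 half-site was found.
Sgk1: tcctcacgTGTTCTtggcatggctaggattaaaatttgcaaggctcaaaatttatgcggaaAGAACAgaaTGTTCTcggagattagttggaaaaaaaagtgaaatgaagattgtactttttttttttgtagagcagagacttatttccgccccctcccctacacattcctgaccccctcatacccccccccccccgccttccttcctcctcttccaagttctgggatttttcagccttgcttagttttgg
Tsc22d3: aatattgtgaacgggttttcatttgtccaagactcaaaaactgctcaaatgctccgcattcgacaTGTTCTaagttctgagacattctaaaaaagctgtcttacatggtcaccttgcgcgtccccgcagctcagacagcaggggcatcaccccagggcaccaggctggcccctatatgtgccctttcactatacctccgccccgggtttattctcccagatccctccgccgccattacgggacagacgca
RefSeq gives 6 such windows for Sgk1 and 3 for Tsc22d3, and the one with the most half-sites is printed for each. A half-site was found in 3 of the 6 and in 1 of the 3, and the palindrome in 1 of the 6 and in 0 of the 3. The palindrome, searched on both strands, was present in 3 of 32851 windows of this length, and a half-site in 16.1% of them. A half-site was present in 14 of 141 windows of the genes called lower (9.9%) and in 40 of 576 windows of those called higher (6.9%). A match is a description of the letters in the window and does not show that the receptor binds there.

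Further genes induced in WT were still called up in D647V-Tetra, but less so than in WT. There were 22 such genes, the 3 above included. Arrdc2, which encodes an arrestin-domain protein, went from 7.714 and 8.389 to 53 and 47.55 CPM in WT, and from 8.916, 9.585 and 8.265 to 24.56, 24.02 and 25.44 CPM in D647V-Tetra, a log2 difference of -1.17 ± 0.104 (SE). S100a7a, of the S100 family of calcium-binding proteins, was low throughout. It went from 0.3828 and 0.7423 to 5.506 and 4.584 CPM in WT and from 1.567, 1.504 and 1.726 to 2.585, 2.691 and 3.05 CPM in D647V-Tetra, so that its difference of -2.36 ± 0.315 came with a baseline called higher. Arl4d, a small GTPase (-0.79 ± 0.118), Sdc4, a cell-surface proteoglycan (-0.78 ± 0.0884), Zfp36l2, an mRNA-decay factor (-0.75 ± 0.0918), Rhob, a small GTPase (-0.74 ± 0.0943), Mt1, a metallothionein (-0.65 ± 0.0958) and Ampd3, an AMP deaminase (-0.59 ± 0.106), were of the same kind. With the WT of set 1 as reference, Mt1 (-0.37, adjusted p 0.176) was no longer called. Arl4d (-0.40), Zfp36l2 (-0.45) and Ampd3 (-0.31) were still called with that reference, at smaller values.

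A second kind of lower gene was called up in WT and not called in D647V-Tetra (24 genes). Aldh1a1 encodes a retinaldehyde dehydrogenase (chromosome 19, 20492715 to 20643465, plus strand). Its level was 125.4 and 117.2 CPM in WT with EtOH and 202.1 and 211.9 CPM with Dex, against 81.72, 72.98 and 74.66 CPM and 75.74, 77.8 and 71.69 CPM in D647V-Tetra. The treated and untreated D647V-Tetra libraries overlapped, while the WT groups did not. The D647V-Tetra response was -0.03 ± 0.0511 on the log2 scale (SE) and the difference -0.80 ± 0.0803 (adjusted p 4.53e-05). Its paralogue Aldh1a7, on the same chromosome (20692953 to 20727562, minus strand), behaved alike, with a D647V-Tetra response of -0.01 ± 0.049 and a difference of -0.89 ± 0.077. Since the 2 paralogues are similar in sequence, reads may have been shared or dropped between them, and their separate values are uncertain.

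Cdr2, which encodes a cytoplasmic coiled-coil protein, went from 49.91 and 47.9 to 86.14 and 86.84 CPM in WT, and in D647V-Tetra from 47.93, 44.17 and 49.11 to 46.36, 44.68 and 43.59 CPM. Hs6st1, a heparan sulfate sulfotransferase, went from 99.53 and 94.69 to 181.1 and 173.1 CPM in WT, and in D647V-Tetra from 88.8, 90.67 and 92.68 to 96.18, 98.85 and 95.65 CPM. In both genes the 4 groups fell into a high group, WT with Dex, and 3 low ones. The differences were -0.89 ± 0.0865 and -0.77 ± 0.0669. Adamts1, a secreted metalloprotease (-0.74 ± 0.0997), Zfp697, a zinc-finger protein (-0.84 ± 0.139), Fam83d, a spindle-associated protein (-0.70 ± 0.09) and Dnaja1, an Hsp40 co-chaperone (-0.52 ± 0.0754), followed the same course. Adamts1 (-0.41) and Dnaja1 (-0.33) were still called, at smaller values, with the WT of set 1 as reference. Pik3r1, the regulatory subunit of phosphoinositide 3-kinase, was called at -0.36 ± 0.0711. Its call was lost without the second WT EtOH library (-0.36, adjusted p 0.0766) and without the second WT Dex library (-0.36, adjusted p 0.073).

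Of the lower genes, 2 were called up in WT and down in D647V-Tetra. Slc31a2, which encodes a copper transporter homologue, went from 37.85 and 35.77 to 49.97 and 50.48 CPM in WT and from 34.02, 32.61 and 34.26 to 28.74, 27.68 and 28.01 CPM in D647V-Tetra. The groups did not overlap in either line, and the directions were opposite. Its difference was -0.71 ± 0.0733. Plpp1, a phospholipid phosphatase, went from 30.86 and 30.27 to 36.5 and 38.27 CPM in WT and from 34.05, 31.96 and 33.04 to 27.37, 30.43 and 28.53 CPM in D647V-Tetra, a difference of -0.49 ± 0.0844, which was -0.30 and still called with a per-library offset for exon length, chosen after seeing the data.

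Another kind was not called in WT and called down in D647V-Tetra (63 genes). The largest difference of this kind among the named genes was that of Cxcl5, a neutrophil-attracting chemokine, at 3.842 and 3.347 CPM with EtOH and 5.723 and 4.653 CPM with Dex in WT, against 5.046, 4.284 and 4.211 CPM and 2.011, 2.574 and 2.501 CPM in D647V-Tetra. The treated WT libraries lay above the untreated ones and the treated D647V-Tetra libraries below. The difference was -1.46 ± 0.204 (adjusted p 0.00135), and Cxcl5 was the only gene among the 21 stable lower ones that was not called in WT. Its neighbour Cxcl3 (-0.95 ± 0.245) was called with all libraries. Leaving out 1 library ended the Cxcl3 call in 7 of 10 cases, namely the second WT EtOH library, either WT Dex library, D647V-Tetra EtOH libraries 1 and 3 and D647V-Tetra Dex libraries 1 and 3, at values of -1.07 to -0.82. Cxcl3 stood at -0.37 (adjusted p 0.29) with the WT of set 1 as reference. Ptgs2, the inducible cyclooxygenase, had a difference of -0.36 ± 0.0811, lost its call without the second WT EtOH library (-0.38), the first WT Dex library (-0.28) and D647V-Tetra Dex libraries 1 and 3 (-0.33 and -0.35), and with the WT of set 1 as reference it was 0.01.

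**Figure D2:**
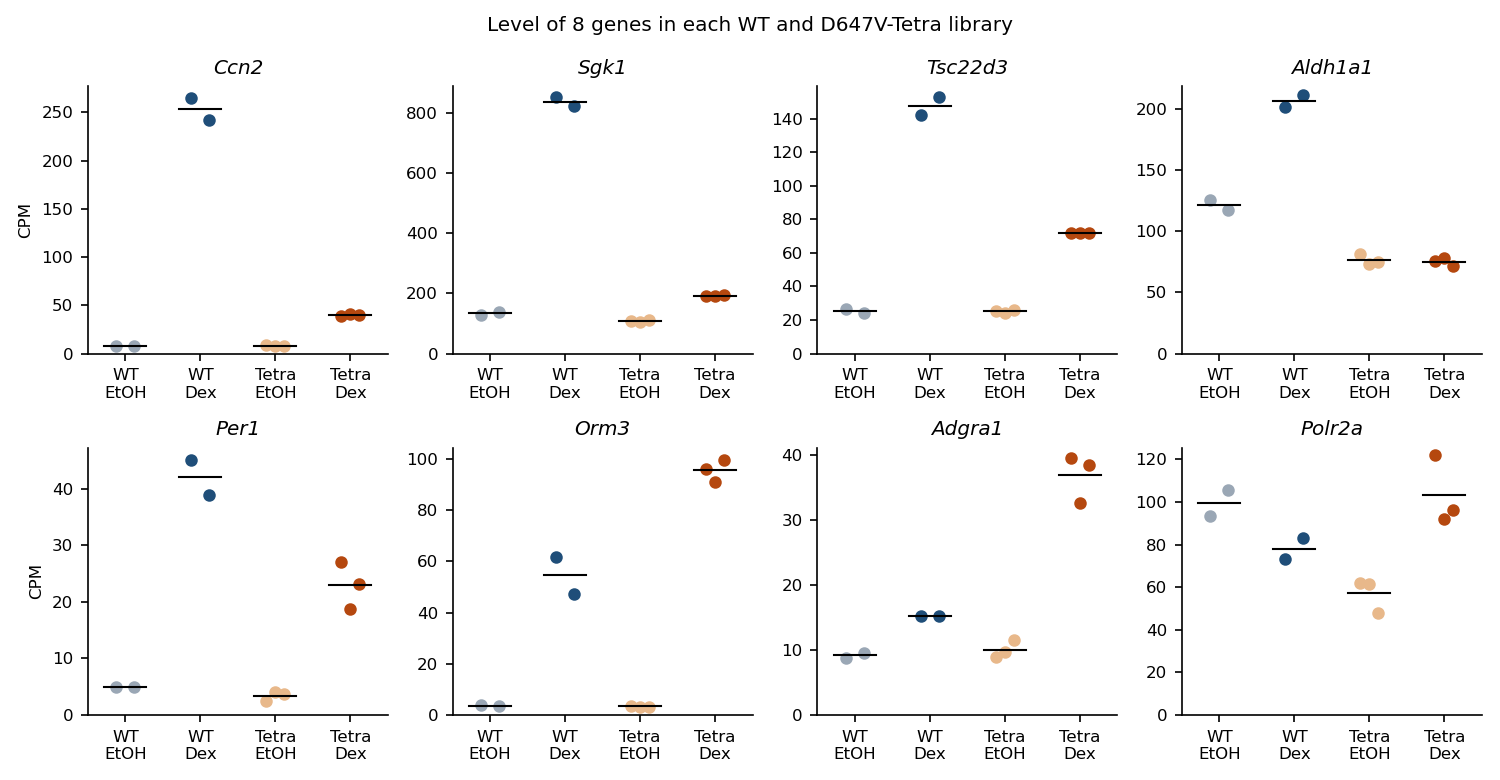
Points give the level in CPM (vertical axis, from 0) of 8 genes in each WT library (2 with EtOH, 2 with Dex) and each D647V-Tetra library (3 with EtOH, 3 with Dex), and lines give group means. Treated D647V-Tetra libraries lie far below treated WT libraries for Ccn2, Sgk1 and Tsc22d3 and above them for Orm3 and Adgra1, and for Polr2a the D647V-Tetra libraries with EtOH lie lowest.

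A set of 40 classic GR-induced genes, of which 34 passed the filter on low counts, was described as a whole. In it 12 had a lower and 0 a higher difference in edgeR's test, against 0.713% and 3.7% of all genes tested, and 18 lower and 1 higher passed 0.05 before adjustment (with DESeq2, 14 and 1 after adjustment). The median difference was -0.32, against -0.01 over all genes tested. In WT 25 of them were called up, and in D647V-Tetra 24. The list was drawn up with results of these data known, so its direction is not independent evidence. The other members called were Tsku, a secreted small leucine-rich protein (-0.72 ± 0.13), Gadd45b, a stress sensor (-0.55 ± 0.108), Cebpd, a transcription factor (-0.92 ± 0.189), Fkbp5, the GR co-chaperone (-0.34 ± 0.0822), Glul, glutamine synthetase (-0.26 ± 0.0641), and Anxa1, annexin A1. Calls of these were less stable. Tsku lost its call without the second WT EtOH library (-0.69, adjusted p 0.06), Cebpd without that library (-0.73, adjusted p 0.114) or the second WT Dex library (-0.74, adjusted p 0.122). Gadd45b lost it without either of these libraries as well (-0.53 and -0.57). Fkbp5 kept its call in 5 and Glul in 4 of the 10 leave-outs, with values of -0.40 to -0.29 and -0.29 to -0.24. Both lost it without the second WT EtOH library, either WT Dex library, and D647V-Tetra Dex libraries 1 and 3, and Glul also without D647V-Tetra EtOH library 3. With the WT of set 1 as reference, 4 of these calls were lost, those of Gadd45b (-0.16, adjusted p 0.353), Cebpd (-0.52, adjusted p 0.0812), Fkbp5 (-0.18, adjusted p 0.124) and Glul (-0.16, adjusted p 0.176).

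**Figure D3:**
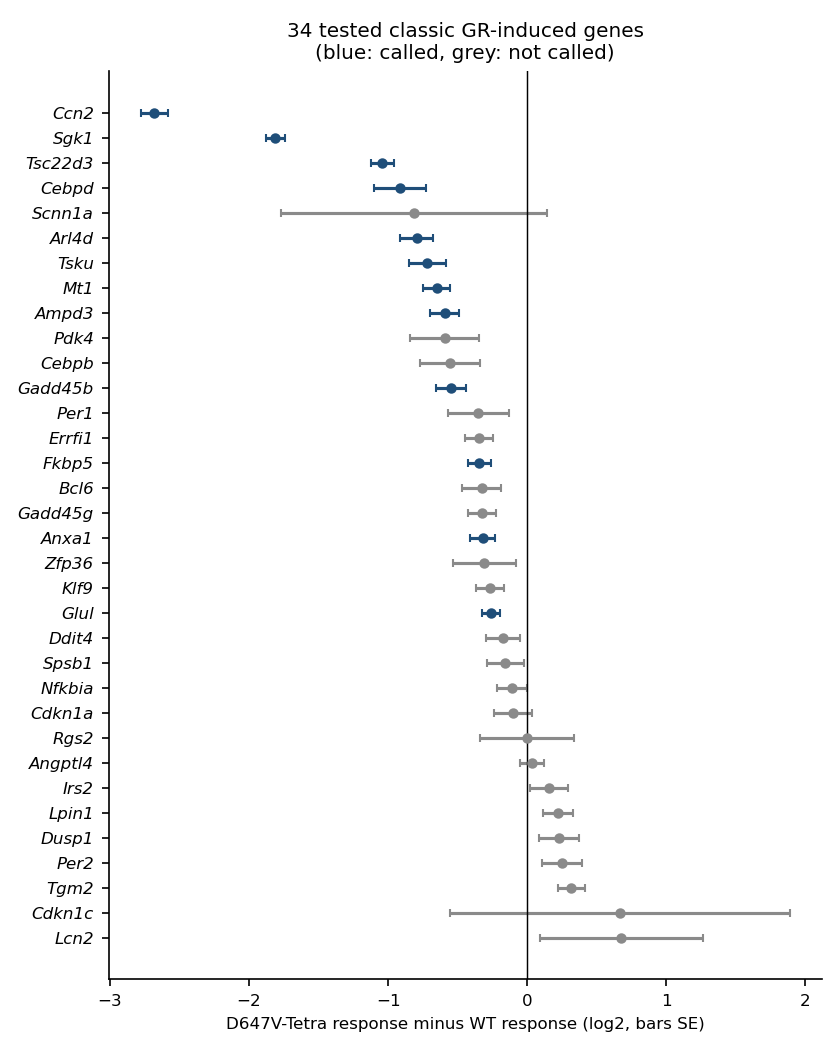
Points give the log2 difference of Dex response, D647V-Tetra minus WT (horizontal axis), for the 34 tested members of the list of classic GR-induced genes, and bars give the SE. All 12 called members lie below 0, from Ccn2 at -2.68 to Glul at -0.26.

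Other classic targets did not pass the test, and their intervals show what the data allow. Per1, a clock gene with a strong GR response, went from 4.961 and 4.93 to 45.13 and 38.83 CPM in WT and from 2.507, 4.04 and 3.74 to 27.03, 18.72 and 23.11 CPM in D647V-Tetra. Treated D647V-Tetra libraries were below both treated WT libraries, but untreated ones were lower too (baseline -0.52). The difference was -0.35 with a 95% interval of -0.81 to 0.11 (adjusted p 0.313). Spsb1, a ubiquitin ligase adaptor, had a difference of -0.16 (-0.44 to 0.12). Errfi1, which restrains EGF receptor signalling, had -0.35 (-0.57 to -0.13, adjusted p 0.0629), and was called without the second D647V-Tetra EtOH library (-0.41), without the second D647V-Tetra Dex library (-0.37), with DESeq2 (-0.36, adjusted p 0.0203) and without the low-count filter (-0.35, adjusted p 0.00576). Its direction turned, to 0.22 (adjusted p 0.094), with the WT of set 1 as reference. Without the low-count filter, edgeR's adjusted p could be far smaller at a nearly unchanged difference. For Nav2 it was 2.12e-40 at 1.32, against 0.0128 at 1.33 with the filter. Calls made without the filter are therefore not on equal terms with the others. Lcn2, a secreted iron-siderophore binder, was induced from below 1 CPM in both lines, 59-fold and 94.3-fold, and its difference of 0.68 spanned -0.56 to 1.91. Dusp1, a MAP kinase phosphatase, had 0.23 (-0.08 to 0.53), and Cdkn1a, the p21 inhibitor, had -0.10 (-0.39 to 0.18). Tgm2, transglutaminase 2, had 0.32 (0.12 to 0.52, adjusted p 0.0631). It was called higher in 8 other settings, namely with DESeq2 (0.31), with library totals (0.35), without the low-count filter (0.31), with the WT of set 1 (0.56, adjusted p 6.12e-06) or the mean WT response (0.43) as reference and with each of 3 offsets for exon length (0.31 to 0.36). Fabp4, a fatty acid carrier, had -0.50 (-1.11 to 0.12).

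Genes induced in WT and induced more in D647V-Tetra numbered 14. They were Adgra1, Chst11, Nipal1, Sox9, Hras, Mknk2, Fmnl2, Orm3, Il6ra, Plin4, Sik1, Fam117b, Suox and Zc3h12c. Adgra1, an adhesion G protein-coupled receptor (chromosome 7, 139834174 to 139878088, plus strand), had 8.774 and 9.594 CPM in WT with EtOH and 15.29 and 15.25 CPM with Dex, against 8.947, 9.728 and 11.5 CPM and 39.6, 32.68 and 38.38 CPM in D647V-Tetra. Levels without hormone overlapped, and every treated D647V-Tetra library lay above both treated WT libraries. The fold changes were 1.66 and 3.66 and the log2 difference 1.14 ± 0.144 (SE, adjusted p 0.000622). Sox9, a transcription factor of cartilage and epithelial progenitors, went from 85.13 and 81.78 to 121.5 and 121.5 CPM in WT and from 51.54, 59.46 and 53.44 to 135.1, 108.8 and 126.7 CPM in D647V-Tetra. Treated levels of Sox9 overlapped between the lines, and the baseline was lower in D647V-Tetra by -0.61, so that the difference of 0.63 ± 0.11 was one of response rather than of the treated level. Chst11, a chondroitin sulfotransferase, had a difference of 0.46 ± 0.0718. Adgra1, Sox9 and Chst11 were called under all 19 other settings.

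Orm3, an acute-phase glycoprotein (orosomucoid) gene, went from 3.975 and 3.361 to 61.81 and 47.36 CPM in WT and from 3.588, 3.281 and 3.309 to 95.95, 91.11 and 99.57 CPM in D647V-Tetra. Its difference was 0.92 ± 0.175, and without the second WT Dex library 0.73 (adjusted p 0.055). It was 2.24 with the WT of set 1 as reference, where the WT response was 2.55. Orm3 has close paralogues, so its counts may be shared with them. Nipal1, a magnesium transporter-like gene, was low and went from 2.311 and 2.871 to 4.796 and 5.48 CPM in WT and from 3.761, 2.779 and 3.348 to 13.57, 16.25 and 14.75 CPM in D647V-Tetra. Its difference was 1.19 ± 0.194, and without the second WT EtOH library 1.01 (adjusted p 0.0561). All 3 treated D647V-Tetra libraries of both genes lay above the WT libraries.

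Hras encodes a small GTPase, and the 3617 parental line is known to carry an integrated MMTV promoter array that drives a ras reporter, whose reads cannot be told apart from those of the endogenous gene here. It stood at 122.0 and 103.8 CPM with EtOH and 164.8 and 149.2 CPM with Dex in WT, and at 139.8, 129.8 and 136.9 CPM with EtOH and 265.3, 264.6 and 285.9 CPM with Dex in D647V-Tetra. Treated D647V-Tetra libraries were all above treated WT libraries. The difference was 0.53 ± 0.0925 (adjusted p 0.00545), and without the second WT Dex library 0.45 (adjusted p 0.0605). Il6ra, the interleukin-6 receptor (0.63 ± 0.129), Sik1, a salt-inducible kinase (0.64 ± 0.143), and Plin4, a lipid droplet coat protein (0.74 ± 0.162), were not called without the second WT EtOH library (0.67, 0.52 and 0.74, adjusted p 0.0609, 0.178 and 0.0917) or the second WT Dex library (0.60, 0.53 and 0.57, adjusted p 0.0848, 0.162 and 0.142). Mknk2, a kinase of translation factor eIF4E (0.53 ± 0.0954), was not called without the second WT Dex library (0.51, adjusted p 0.055).

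All 14 of these genes were also called higher in D647V-Tetra than in D647V, a difference called higher in 0.776% of all genes tested. Both comparisons contain the D647V-Tetra libraries, so the 2 sets of calls are not independent. The log2 responses in WT, D647V and D647V-Tetra were 3.90, 2.66 and 4.82 for Orm3, 0.73, 0.60 and 1.87 for Adgra1, and 0.48, 0.41 and 1.00 for Hras. D647V lay below D647V-Tetra in all 3 genes. Of the 125 lower genes, 10 were called lower than D647V as well, a difference called lower in 0.0969% of all genes tested, with Ccn2, Sgk1, Tsc22d3, Cxcl5, Aldh1a7, Aldh1a1, Cdr2, Hs6st1 and Slc31a2 among them. For Ccn2 the responses were 4.97 in WT, 4.49 in D647V and 2.29 in D647V-Tetra, and for Sgk1 they were 2.65, 1.76 and 0.84. Fkbp5 and Glul went the other way, as D647V-Tetra was called higher than D647V while lower than WT. Their responses were 1.21, 0.52 and 0.87 for Fkbp5 and 0.98, 0.45 and 0.72 for Glul. The remaining lower genes were not called against D647V, so a weaker response is not shown to be particular to D647V-Tetra there. Among them, the log2 difference from D647V was -0.07 for Arrdc2, -0.10 for Sdc4, -0.07 for Tsku and -0.19 for Cebpd. It was 0.26 for Arl4d and 0.22 for Mt1.

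Of the 66 genes that Dex lowered in WT, 7 were called in the difference, against 4.41% of all genes tested (3.7% higher, 0.713% lower). The 66 were chosen with WT libraries that also enter the difference, so this count is not independent. A higher value was called in 6 of them and a lower one in 1, Rnd1 (-0.37 ± 0.1), a call lost without the second WT EtOH (-0.35) or WT Dex library (-0.28) and without D647V-Tetra libraries 1 or 3 of either treatment (-0.37 to -0.32). Dusp4, a MAP kinase phosphatase that acts on ERK, went from 107.5 and 103.9 to 59.46 and 54.25 CPM in WT and from 63.52, 68.6 and 71.12 to 54.35, 49.95 and 51.27 CPM in D647V-Tetra. Treated levels in the 2 lines were close together and partly overlapped, and the untreated level was lower in D647V-Tetra by -0.64. Its difference was 0.51 ± 0.0875, and without the second WT Dex library 0.44 (adjusted p 0.0569). The value was 0.20 (adjusted p 0.15) with the WT of set 1 as reference. Irs1, the insulin receptor substrate, Frs2, an adaptor of fibroblast growth factor receptors, Arid5b, a chromatin protein, Fosl2, an AP-1 subunit, and Creb5, a CRE-binding factor, were called down in WT and not called in D647V-Tetra. Their differences were 0.45, 0.64, 0.63, 0.30 and 0.68. All 5 lost their call without the second WT EtOH library (adjusted p 0.0938, 0.0793, 0.124, 0.255 and 0.267) and without the second WT Dex library (adjusted p 0.0811, 0.0557, 0.112, 0.298 and 0.261). With the WT of set 1 as reference Creb5 was 0.20 (adjusted p 0.522) and Frs2 0.42, still called. With the length offset Creb5 (0.21), Fosl2 (0.17) and Rnd1 (-0.25) were not called.

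Repression of the next 7 genes was not called different with all libraries. Snai2, a zinc-finger repressor, had a difference of 0.47 with an interval of 0.03 to 0.92 (adjusted p 0.17), and was called with the mean WT response of both sets as reference (0.41, adjusted p 0.0451). Phlda1, a pleckstrin homology-like domain gene, had 0.32 (0.06 to 0.59, adjusted p 0.124), and was called with that reference (0.29, adjusted p 0.0317) and with an offset for exon length and GC content (0.42, adjusted p 0.0324). Plk2, a polo-like kinase, had a difference of -0.10 with an interval of -0.26 to 0.07, and Gadd45a, a growth arrest gene, -0.12 (-0.36 to 0.11). Bdnf, a neurotrophin gene, had -0.13 (-0.35 to 0.09), Plau, urokinase, -0.17 (-0.45 to 0.11), and Ccl2, a monocyte chemokine, -0.25 (-0.50 to 0.01), called without the first WT EtOH library (-0.42) and with the mean WT response of both sets as reference (-0.29). All 7 were called down in both lines.

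The WT of set 1 offers a choice of Dex-responsive genes from libraries that do not enter the difference. It called 549 genes (3.4%), with 323 up (2.0%) and 226 down (1.4%), and 321 of the 323 were tested in set 2. Of these, 45 (14.02%) had a lower and 27 (8.41%) a higher response in D647V-Tetra than in the WT of set 2, against 0.713% and 3.7% of all genes tested. The median difference was -0.03, near 0, so the calls lay on both sides of a group whose middle hardly moved. Median log2 responses were 0.45 in the WT of set 2 and 0.53 in D647V-Tetra. Among the 134 tested genes that rose by at least 1.5-fold in set 1, 29 (21.64%) had a lower and 9 (6.72%) a higher response, with a median difference of -0.10. The lower count among the 321 was 24 without the second WT EtOH library and 25 without the second WT Dex library. Of 226 genes called down in set 1, 18 (7.96%) had a higher and 3 (1.33%) a lower difference, with a median of 0.04. The 18 became 5 and 4 without those 2 libraries, 28 without the first WT EtOH library and 30 without the second D647V-Tetra Dex library.

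**Figure D4:**
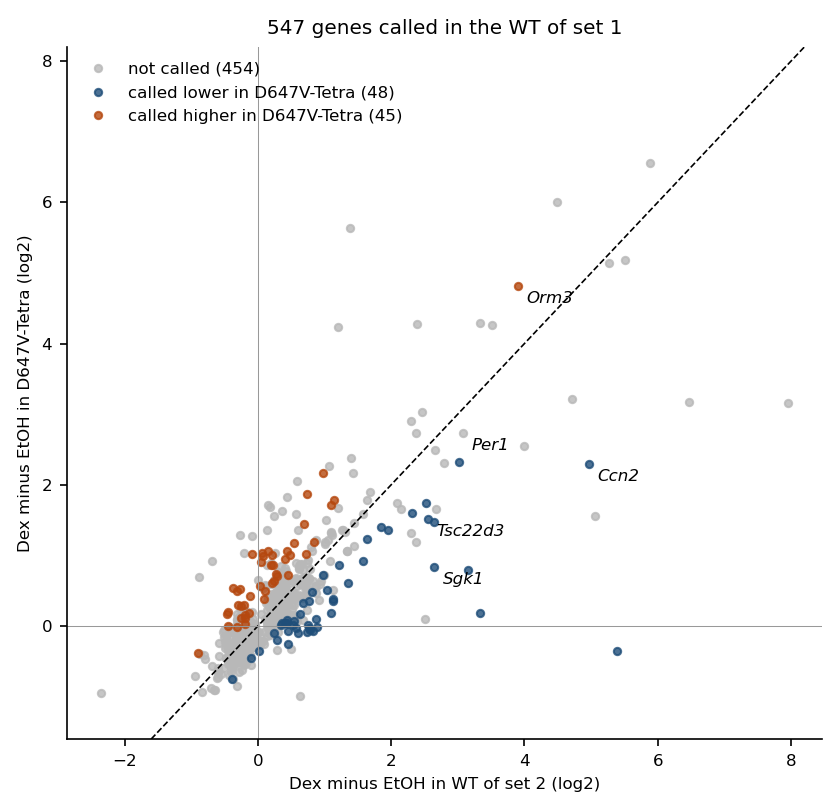
Each point is 1 of 547 genes called in the WT of set 1, with its log2 Dex response in the WT of set 2 (horizontal axis) and in D647V-Tetra (vertical axis), and the dashed line marks equal responses. The 48 genes called lower and 45 called higher in D647V-Tetra lie on either side of the line, Ccn2 and Sgk1 well below it and Orm3 above it. Points far from 0 that were not called include genes with very low counts.

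Most of the higher genes followed another course. Of 649, 594 were not called in WT and called up in D647V-Tetra. Not called does not mean unchanged. The median log2 Dex response of the 649 was -0.17 in the WT of set 2 and 0.45 in D647V-Tetra. A lower EtOH baseline in D647V-Tetra than in WT was called in 482 of the 649 (74.27%), against 9.34% of all genes tested. The lower genes leaned the other way. A higher baseline was called in 57 of these 125 (45.6%), against 9.35% of all genes tested, and a lower one in 11 (8.8%). Difference and baseline share the EtOH libraries, so calls of the 2 are not independent. Polr2a, the largest subunit of RNA polymerase II (chromosome 11, 69733997 to 69758637, minus strand), shows the course. It stood at 93.24 and 105.7 CPM with EtOH and 73.11 and 82.99 CPM with Dex in WT, and at 62.16, 61.36 and 48.01 CPM with EtOH and 121.9, 92.16 and 96.12 CPM with Dex in D647V-Tetra. The treated D647V-Tetra libraries overlapped with untreated WT, and the untreated D647V-Tetra libraries were the lowest of all. The difference was 1.21 ± 0.198. The log2 response of Polr2a was 0.86 in D647V-Tetra, -0.35 in the WT of set 2 (not called) and -0.07 in the WT of set 1.

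Zbtb20, a zinc-finger repressor (1.20 ± 0.182), Tead1, the DNA-binding partner of YAP (1.12 ± 0.161), Crebbp and Ep300, the paralogous histone acetyltransferases and GR coactivators (1.08 ± 0.176 and 1.02 ± 0.158), Fn1, fibronectin (0.99 ± 0.129), and Notch2, a cell-surface receptor (0.77 ± 0.122), were of this kind and were called under all 19 other settings. Their baselines in D647V-Tetra were lower by -0.93, -0.80, -0.65, -0.64, -0.74 and -0.42. The difference was 0.66 for Zbtb20 with the offset for exon length and 0.74 for Tead1 with the WT of set 1 as reference. Log2 responses of Zbtb20 and Tead1 were -0.35 and -0.33 in the WT of set 2, neither called, and -0.01 and 0.02 in the WT of set 1. The 3 genes with the highest differences among called genes that averaged at least 1 in log2 CPM, Hivep3, a zinc-finger protein (1.36), Nav2, a neuron navigator (1.33), and Kmt2d, a histone H3K4 methyltransferase (1.31), were not called without the second WT EtOH library (1.28, 1.11 and 1.20) or the second WT Dex library (1.29, 1.15 and 1.20). Nav2 stood at 0.77 with the length offset.

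These genes have a large exon length. Exon length here is the total over all annotated exons of a gene name, which is not the length of any 1 transcript. The median exon length was 9237 bases among higher genes, 3005 among lower genes and 3345 among all genes tested. Tested genes of any annotation class that averaged at least 1 in log2 CPM were split into 5 groups by exon length. Among them, 410 of 2252 in the longest 20% were called higher (18.21%), against 8 of 2255 in the shortest 20% (0.35%). The median difference rose from -0.21 in the shortest to 0.15 in the longest 20%. The libraries themselves differed in the same respect. The level of the longest 20% minus that of the shortest, each relative to the mean over libraries, was -0.25, -0.09 and -0.19 on the log2 scale in D647V-Tetra with EtOH and 0.11, 0.04 and 0.15 with Dex, with no overlap. In WT it was -0.09 and 0.08 with EtOH and -0.01 and -0.12 with Dex, which overlapped. Genes of the annotation class TEC, transcripts awaiting experimental proof, were 8.94% of higher genes, 0 of lower genes and 6.74% of all genes tested. Whether the shift with length belongs to the preparations or to the cells was not tested. With the per-library offset for exon length 415 genes were called higher and 117 lower, of which 367 and 50 were called the same way without it. The median difference of the 649 higher genes was 0.61, and 0.44 with the offset. Of the stable genes, all 21 lower and 40 of the 43 higher ones were also called with that offset.

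**Figure D5:**
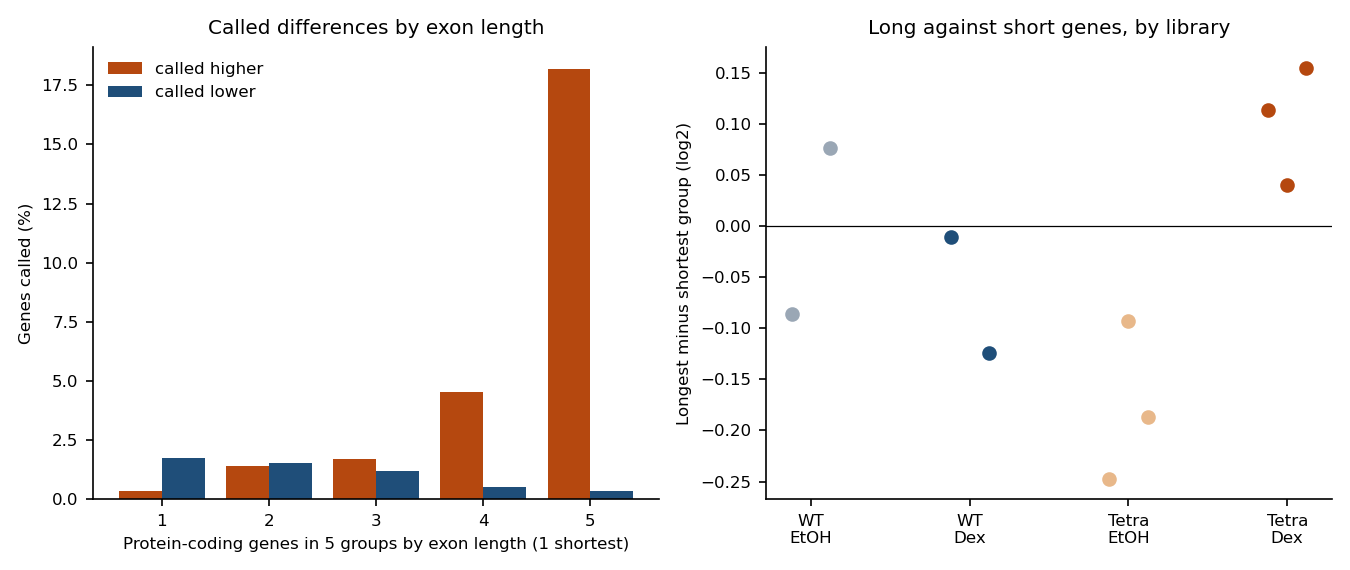
Left, the percentage of genes called higher or lower in the difference (vertical axis) in 5 equal groups by exon length. In the longest group 18.21% were called higher, and in the shortest 0.35%. The groups hold tested genes of any annotation class averaging at least 1 in log2 CPM, although the axis label names protein-coding genes. Right, the log2 level of the longest minus the shortest group in each library, with the D647V-Tetra EtOH libraries from -0.25 to -0.09 and the D647V-Tetra Dex libraries from 0.04 to 0.15.

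Other gene groups are given beside the 3.7% called higher, the 0.713% called lower and the median difference of -0.01 over all genes tested. Nothing particular to a list follows from its count. Of 26 tested genes of GR, chaperones and coregulators, 9 were called higher (among them Ep300, Crebbp, Arid1a, Ncoa1, Ncoa2, Ncoa3, Nfia and Nrip1) and 1, Fkbp5, lower, with a median difference of 0.10, and the median exon length of the group was 7770.5 bases. Of 22 MAP kinase phosphatases and growth factor feedback genes, 2 were called higher, Dusp4 and Spred2 (median 0.05). Of 23 immediate early and AP-1 genes, 2 were called higher, Fosl2 and Egr3 (median -0.02). Among 20 inflammatory and NF-kB targets, 2 were called lower, Cxcl5 and Ptgs2 (median -0.09), and among 22 cholesterol synthesis genes, 2 were called lower, Hmgcs1 and Acat2 (median -0.11). Among 16 circadian clock genes, 1 was called lower, Nfil3 (median -0.01), and among 20 p53 targets 3 were called lower, Gadd45b, Sesn1 and Trp53inp1, and 1 higher, Zmat3 (median -0.11). Of 25 extracellular matrix genes, 3 were called higher, Fn1, Lamc1 and Lama5 (median 0.08). Most of these calls needed the second WT EtOH library. Without it Arid1a (0.85), Ncoa3 (0.32), Spred2 (0.54), Egr3 (1.12), Lamc1 (0.35), Lama5 (0.68) and Zmat3 (0.68) were not called higher, and Nfil3 (-0.36), Hmgcs1 (-0.37), Acat2 (-0.31), Sesn1 (-0.44) and Trp53inp1 (-0.31) not called lower, and these 12 also lost their calls without the second WT Dex library. EdgeR's test made 0 calls in the cell cycle list (30 genes, 12 lower and 2 higher before adjustment of p at 0.05, 4 and 1 with DESeq2) and in the unfolded protein response list (17 genes, 9 lower and 3 higher before adjustment, 5 and 0 with DESeq2). It also made 0 calls in the integrated stress response (19 genes, 6 lower and 1 higher before adjustment, 4 and 0 with DESeq2) and the interferon response (14 genes, 0 before adjustment, 0 with DESeq2). Markers of other cell types held 1 call, Fn1, and the summed level of 8 immune markers was 7.341 to 9.272 CPM.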

How the data were processed

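Per the labels, total RNA was depleted of ribosomal RNA and sequenced as 100 bp paired reads, with 5% Drosophila S2 cells added as a spike-in that was not used here. Per the submitters' processing notes, reads were processed with bcl2fastq 2.17, cutadapt and STAR on mm10. The deposited values are raw counts per gene name, made with featureCounts 2.0.3 on GENCODE vM21 with reverse-strand counting, per the file headers, and both mates of a pair were counted. Of 55341 gene names, 55233 stand for a single gene.

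Counts were filtered with filterByExpr, scaled by TMM and fitted with edgeR 4.0.16 (R 4.3.3, limma 3.58.1) on all 16 libraries of set 2, with a mean per group, 10 residual degrees of freedom and a biological coefficient of variation of 8.62%. Set 1 (18 libraries, 16140 genes) was fitted separately. DESeq2 1.42.0 was an alternative. Tests were two-sided, SE is the absolute log2 change over the square root of F, and the scripts were tested on simulated data. CPM levels are scaled to normalized library sizes and are not per length. Depth covers counting error only.

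The members, gene lists and rules were chosen with earlier results of these data known. Named were, among genes averaging 1 or more in log2 CPM, the 15 highest and 15 lowest called differences, the 15 most induced and 10 most repressed genes of the WT of set 1, a list of known GR genes, and up to 4 called members per list. Other names were chosen after their values were seen. Some items are not reported here.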

Additional observations from a re-analysis of the deposited data

Results flagged for a closer look

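Under the same Dex contrast, the response of 61 named genes differed between D647V-Tetra and WT by edgeR's quasi-likelihood test of the difference itself (adjusted p below 0.05), and their log2 differences are given here. The 2 lines share no libraries in this contrast, and what causes any of the differences was not tested. Stable and less stable calls are listed alike. Without the third D647V-Tetra EtOH library, Cacng7 (1.145), Ssc5d (1.04), Tgfb2 (0.35), Vegfa (0.32) and Sphk1 (-0.39) were among those not called. With the WT of set 1 as reference, Cacng7 (0.80), Ssc5d (0.43) and Tgfb2 (0.19) were among those not called.
Lower in D647V-Tetra, the log2 differences were Ccn2 -2.68, S100a7a -2.36, Sgk1 -1.81, Cxcl5 -1.46, Arrdc2 -1.17, Tsc22d3 -1.04, Cxcl3 -0.95, Cebpd -0.92, Aldh1a7 -0.89 and Cdr2 -0.89. Smaller negative differences were Zfp697 -0.84, Aldh1a1 -0.80, Arl4d -0.79, Sdc4 -0.78, Hs6st1 -0.77, Tsku -0.72, Mt1 -0.65, Gadd45b -0.55 and Sesn1 -0.51. The least negative were Sphk1 -0.43, Nfil3 -0.42, Ptgs2 -0.36, Hmgcs1 -0.35, Fkbp5 -0.34, Trp53inp1 -0.30, Acat2 -0.29 and Glul -0.26. Higher in D647V-Tetra, the log2 differences were Hivep3 1.36, Nav2 1.33, Kmt2d 1.31, Egr3 1.24, Cacng7 1.24, Polr2a 1.21, Zbtb20 1.20, Nipal1 1.19, Zfp703 1.16, Hspg2 1.15, Zfhx3 1.14 and Adgra1 1.14. Smaller positive differences were Tead1 1.12, Nav1 1.11, Ssc5d 1.11, Kmt2a 1.11, Crebbp 1.08, Ep300 1.02, Fn1 0.99, Arid1a 0.96, Orm3 0.92, Notch1 0.91, Notch2 0.77 and Zmat3 0.75. The least positive were Plin4 0.74, Lama5 0.69, Spred2 0.68, Hras 0.53, Dusp4 0.51, Ncoa3 0.40, Lamc1 0.36, Tgfb2 0.35, Vegfa 0.32 and Fosl2 0.30.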

How the results depend on the processing

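The count of called differences (774, 649 higher and 125 lower) kept within 1.5 times with relative log expression factors, library totals and robust dispersion. It was 1755 (1212 and 543) with DESeq2, 2424 (1609 and 815) without a low-count filter, 457 (394 and 63) with only WT and D647V-Tetra fitted and 3240 (1490 and 1750) with the mean WT response of both sets as reference. With the WT of set 1 as reference 627 were higher and 295 lower, but only 423 of the 649 and 59 of the 125 were among them. The median difference of the 649 was then 0.44, against 0.61, and that of the 125 was -0.27, against -0.39. Among settings added after seeing the data, 415 were higher with an exon length offset, 233 lower with an exon length and GC offset, and 410 (328 and 82) were called with that offset and the replicate block. The replicate block alone gave 431 (373 and 58), and 82 in the comparison with D647V. Replicate numbers did not pair the libraries: deviations of same-numbered pairs correlated at -0.653 to 0.609, with 12 of 36 over 0.1. Leaving out 1 library gave 75 to 1643 calls (50 to 1163 higher, 25 to 506 lower).

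D647V-Tetra against D647V (153 called) gave 465 with DESeq2, 76 with library totals, 936 without the filter, 84 with the length offset and 49 to 271 with 1 library left out. The WT response of set 2 (302) gave 583 without the filter and 195 to 227 with 1 library left out, the D647V-Tetra response (3367) 1344 to 4023, the baseline (3277) 1498 to 3598 and the WT response of set 1 (549) 411 to 486. Of set 1 induced genes, 45 were lower, 86 with the mean WT reference, 29 at a 1.5-fold minimum and 24 to 54 with 1 library left out. Of set 1 repressed genes, 18 were higher, 30 with DESeq2, 34 without the filter, 10 with only 2 lines fitted, 32 and 52 with the WT of set 1 and the mean WT reference, 1 at a 1.5-fold minimum and 4 to 30 with 1 library left out. Ptgs2 reversed to 0.00884 with the WT of set 1 as reference. Where 1 WT library remained, it was assumed to vary like the others. The cause of these changes was not tested, and 2 WT libraries per treatment limit the precision.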
